A study of Mus musculus with 2 samples.

Results

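Glucocorticoid-responsive genes are the 7 genes Tsc22d3, Fkbp5, Sgk1, Zbtb16, Errfi1, Nr3c1 and Hsd11b1, out of 18193 genes that the array's annotation names alone on at least 1 probe set. They were chosen by name, with earlier results of these data known, and all probe sets carrying 1 of these symbols and no other were taken, which gave 20 probe sets of 34958 with a single symbol. The samples were labelled as vascular cells flow-sorted from the right lung lobes of C57BL/6J mice whose left lobe had been resected (pneumonectomy), which is followed by growth of the remaining lung, and they formed 2 groups, old and young, with 1 Affymetrix array each. Both groups had the operation, so no array shows the unoperated lung. The sources used here do not give the ages, the time between surgery and sorting, the markers used to sort or how many mice stand behind an array. With 1 array per group no difference below has a replicate check and no test was possible, and the number of arrays limits the precision of every value.

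Glucocorticoids are steroid hormones of the adrenal gland that pass into cells and bind the glucocorticoid receptor, the product of Nr3c1, which waits in the cytoplasm in a complex with heat shock proteins and FK506-binding proteins. The bound receptor moves to the nucleus, where it induces genes through response elements in DNA and restrains inflammatory genes. In the lung the hormone is best known for driving maturation before birth and for damping inflammation, and endothelial cells carry the receptor too. Tsc22d3 (the leucine zipper protein GILZ), Fkbp5 (which lowers the receptor's affinity for hormone), Sgk1 (a serum- and glucocorticoid-induced kinase), Errfi1 (an inhibitor of the epidermal growth factor receptor) and Zbtb16 (a zinc finger repressor) are standard target genes, and Hsd11b1 encodes the enzyme that turns inactive 11-keto steroid into active hormone inside the cell.

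The receptor's palindromic response element joins the half-site AGAACA, across 3 bases of any kind, to its reverse complement TGTTCT. The RefSeq promoter windows used here (GRCm38.p6, 250 bases before to 50 after a transcript start, gene strand) were searched on both strands, and 13 windows of 5 of the genes were found, while Nr3c1 and Zbtb16 had no entry. The palindrome was in 1 window of Sgk1 and in 3 of all 32851 windows (0.00913%), the other two belonging to Acnat2 and Gm35041. The variant with GGTACA in place of AGAACA was in 0 of the 32851. The half-site was in 4 of the 13 windows (30.8%), namely 3 of the 6 of Sgk1 and 1 of the 3 of Tsc22d3, against 19.0% of all windows. The palindrome holds 2 half-sites, so its letters were counted under both motifs. Fkbp5 and Hsd11b1, with 1 window each, and the 2 windows of Errfi1 had no half-site, which says only that these letters are not in these windows. A match is a run of letters and not a shown binding site. The windows that follow are the Sgk1 window with the palindrome (chr10:21993640-21993939, plus strand), the Tsc22d3 window with a half-site (chrX:140600473-140600772, minus strand) and the downstream Errfi1 window, which holds other promoter elements (chr4:150854820-150855119, plus strand). Capitals mark the palindrome and half-sites in the first and second, and the cAMP response element TGACGTCA and the TATA box TATAAA in the third.
Sgk1: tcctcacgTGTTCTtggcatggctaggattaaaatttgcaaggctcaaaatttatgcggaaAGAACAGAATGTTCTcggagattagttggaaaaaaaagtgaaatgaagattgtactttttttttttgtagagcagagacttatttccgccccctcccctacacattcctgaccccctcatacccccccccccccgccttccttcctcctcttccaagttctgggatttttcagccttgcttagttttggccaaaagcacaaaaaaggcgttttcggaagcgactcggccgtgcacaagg
Tsc22d3: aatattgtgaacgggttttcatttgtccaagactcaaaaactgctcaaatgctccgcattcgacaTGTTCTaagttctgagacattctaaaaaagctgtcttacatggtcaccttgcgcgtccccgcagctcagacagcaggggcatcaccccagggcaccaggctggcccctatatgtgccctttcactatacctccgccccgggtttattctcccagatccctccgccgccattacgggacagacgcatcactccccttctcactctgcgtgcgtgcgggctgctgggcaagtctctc
Errfi1: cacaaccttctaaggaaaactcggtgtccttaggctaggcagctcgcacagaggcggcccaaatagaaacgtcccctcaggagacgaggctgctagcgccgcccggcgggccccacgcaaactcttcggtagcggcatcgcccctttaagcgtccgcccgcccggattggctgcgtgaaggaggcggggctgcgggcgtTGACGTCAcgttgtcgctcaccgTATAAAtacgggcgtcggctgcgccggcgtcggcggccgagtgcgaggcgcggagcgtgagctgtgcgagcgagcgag
In Sgk1 the palindrome began 189 bases before the transcript start of its window, and a further half-site 242 bases before it. That start lay 776 bases upstream of the start of the last Sgk1 window, which has a TATA box and no half-site. In Tsc22d3 the half-site began 185 bases before the start. In Errfi1 the cAMP response element began 51 and the TATA box 28 bases before the start, and these motifs were in 1.79% and 13.6% of all windows. The probe sets were not assigned to single transcript starts, so the array values cannot be tied to 1 window.

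The deposited MAS5 signals were first brought to a common scale, on which probe sets above the median of their array had a median log2 ratio of 0. This meant multiplying the old signals by 1.05 and the young by 0.956. Signals below the floor, 73.7 units, were treated as unordered, the floor being the higher of both arrays' medians over non-control probe sets. For each gene the value is that of the probe set whose mean log2 signal was highest, and a positive log2 ratio means a higher signal on the old array. Genes were counted when the ratio reached 2-fold, on the old side when the old signal was the higher one and on the young side when it was the lower. Probe sets that measure 1 gene differed in log2 ratio with an SD of 0.42 (4514 genes), the only repeated measure these data offer, which describes probes and not mice. The ratios of the members and the counts and medians of the lists were recomputed under 9 alternatives to the scaling, the floor and the choice of probe sets, which with the reported one makes 10 settings, while ranks among all genes, summed signals and the search for nearest ratios were not. Before the results, the cell markers were set beside the labels. All 14 pan-endothelial markers were above the floor on both arrays. The array labelled old, however, held genes known from the liver at high signals, although its label names the lung. Its highest signal of any non-control probe set was that of Clec4g, a gene known from the sinusoidal endothelium of the liver, with 41144 on the old array and 792 on the young one. The hepatocyte gene Alb had 8900 on the old array and a signal under the floor on the young. The young array in turn held lymphatic endothelial genes at high signals. Of 7 such markers, 5 were past 2-fold on the young side, among them Prox1 (6885) and Nts (10414), both under the floor on the old array. Whether either sample is as labelled was not tested, so every difference below is one between the array labelled old and the array labelled young. Age, organ and cell make-up cannot be told apart in such a difference. All marker groups are given after the members, and with 1 array per group no result could be repeated without the array labelled old.

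The set did not move as one. Tsc22d3, Fkbp5 and Sgk1 were past 2-fold on the old side, Errfi1 and Hsd11b1 past 2-fold on the young side, the receptor gene Nr3c1 was within 2-fold and Zbtb16 was below the floor on both arrays. All 6 others cleared the floor on old and young arrays alike. The 3 on the old side stand beside 11.7% of the 10004 genes that both arrays measured above the floor, and the 2 on the young side beside 10.6%. The median log2 ratio of the 6 was 0.99, against -0.02 over the 10004 genes, whose SD was 1.13. In such bulk samples fewer cells of a type and less RNA per cell cannot be told apart. Of the 20 probe sets 14 were above the floor on both arrays and 6 on neither. Of these 14, 11 had a positive log2 ratio, 6 of them at 2-fold or more, and 3 a negative one, all at 2-fold or more.

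**Figure D1:**
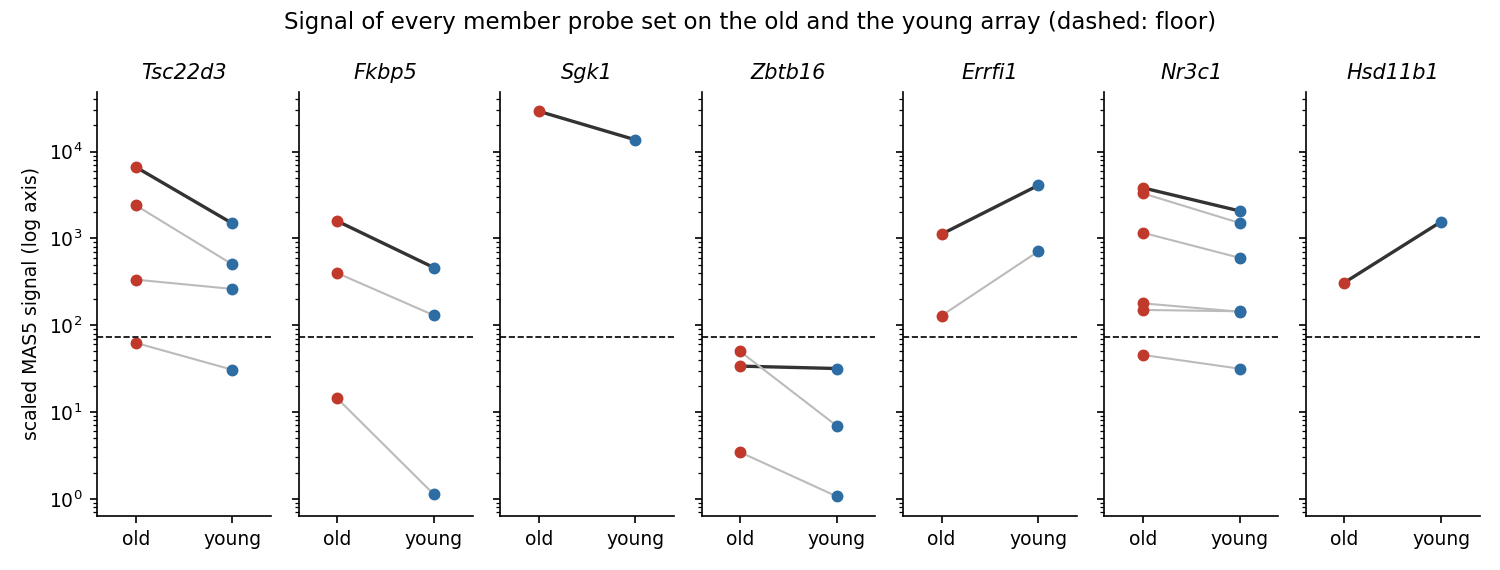
Scaled MAS5 signal (log axis) of every probe set of the 7 genes on the old (red, left) and the young (blue, right) array. Each line joins 1 probe set, the dark line is the probe set that represents the gene, and the dashed line is the floor of 73.7 units. Lines slope down to the right for Tsc22d3, Fkbp5 and Sgk1 and up for Errfi1 and Hsd11b1, and all 3 probe sets of Zbtb16 lie under the floor.

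Tsc22d3, whose protein binds and restrains NF-kappaB and AP-1 in immune cells, read 6632 on the old array, against 1487 on the young (probe set 1420772_a_at, X chromosome). It was 4.46-fold higher on the old array, a log2 ratio of 2.16, and 407 of the 10004 genes (4.07%) had a higher one. The probe set 1425281_a_at gave 2403 on the old array and 501 on the young one, a log2 ratio of 2.26. The probe set 1425557_x_at, of the kind that can match several transcripts, gave 335 on the old array, against 262 on the young, a log2 ratio of 0.35. The difference is therefore carried by 2 of the 3 probe sets above the floor, and the spread between them, 1.91, exceeds the usual spread between probe sets. The mean over the 3 was 1.59.

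Fkbp5 encodes a co-chaperone of the receptor and is part of a short feedback loop, since the receptor induces it and the protein in turn makes the receptor less sensitive to hormone. Its signal was 1582 on the old array and 461 on the young one (1416125_at, chromosome 17), which is 3.43-fold higher on the old array, a log2 ratio of 1.78. A second probe set, 1448231_at, gave 398 on the old array, against 130 on the young, a log2 ratio of 1.62. The probe sets differed by 0.16, less than the SD of 0.42 between probe sets of a gene. The remaining one was below the floor on both arrays. Of the 10004 genes, 546 (5.46%) had a higher ratio.

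Sgk1 encodes a kinase of the AKT family that acts on ion channels and on NDRG proteins. Its only probe set, 1416041_at (chromosome 10), read 29160.1 on the old array and 13674 on the young one, a 2.13-fold higher signal on the old array and a log2 ratio of 1.09. The old signal was in the upper part of the array's range, whose highest non-control signal was 41144. Sgk1 lay close to the 2-fold line and passed it in 6 of 10 settings of the processing. These 6 all kept the median centring and gave 1.09. With 1 probe set far above the floor, changes to the floor or the choice of probe sets could hardly move the ratio. Every setting that changed the scaling put Sgk1 under 2-fold. Its log2 ratio was 0.96 on the values as deposited, 0.97 with equal trimmed means, 0.57 with loess and 0.39 with quantile normalization.

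Errfi1 went the other way. Its protein, also called MIG6, binds the kinase domain of the epidermal growth factor receptor and is induced both by glucocorticoids and by growth factors. Its signal was 1120 on the old array, against 4086 on the young (1416129_at, chromosome 4), which is 3.65-fold lower on the old array, a log2 ratio of -1.87. The probe set 1419816_s_at gave 129 on the old array, against 708 on the young, a log2 ratio of -2.46. Both probe sets had the same sign, and 352 of the 10004 genes (3.52%) had a lower ratio than Errfi1.

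Zbtb16, also called PLZF, is strongly induced by the hormone in many cell types. One probe set gave 33.8 on the old array, against 31.7 on the young. Another gave 49.8 on the old array, against 6.92 on the young, and the last 3.44 on the old array, against 1.06 on the young. All were below the floor, so the gene has no order between the arrays and no fold. With the floor lowered to the 25th percentile it had a log2 ratio of 0.09.

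Nr3c1 itself, on chromosome 18, read 3820 on the old array and 2071 on the young one (1460303_at), a log2 ratio of 0.88 or 1.84-fold. It was within 2-fold in all 10 settings, where its log2 ratio ran between 0.67 and 0.89. Its probe sets differed in size by 1.08 from lowest to highest. The probe set 1421867_at gave 3300 on the old array, against 1505 on the young (log2 ratio 1.13), and 1457635_s_at gave 1161 on the old array and 597 on the young one (0.96). The 2 sets with low signals were near 0, with 178 on the old array, against 143 on the young (0.32), and 150 on the old and 145 on the young (0.05). All 5 probe sets above the floor had a positive ratio, the last 2 by less than the SD of 0.42 between probe sets, and the remaining one was below the floor on both arrays. The ratio of Nr3c1 was exceeded by 1355 of the 10004 genes (13.5%).

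Hsd11b1, which regenerates active hormone, was the gene of the set with the lowest ratio. Its only probe set, 1449038_at (chromosome 1), read 310 on the old array, against 1557 on the young, which is 5.02-fold lower on the old array, a log2 ratio of -2.33. A lower ratio was found for 198 of the 10004 genes (1.98%). Hsd11b1 is known to be abundant in hepatocytes. All 13 measured hepatocyte markers were past 2-fold on the old side, 12 of them above the floor on the old array alone. Of 7 lymphatic endothelial markers, 5 were past 2-fold on the young side and 0 on the old. The part of either cell type in the value of Hsd11b1 was not tested. Hsd11b1 stayed past 2-fold on the young side in all 10 settings. With the floor raised to the 75th percentile, above its old signal, the log2 ratio was limited to -1.67.

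**Figure D2:**
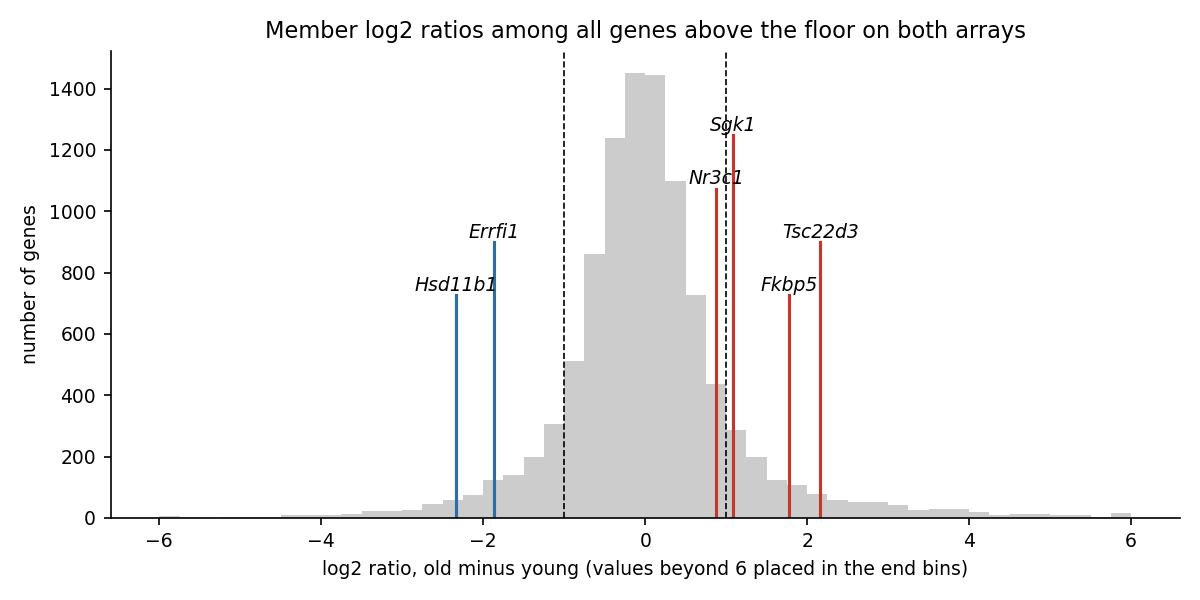
Number of genes (bars) by log2 ratio, old minus young, for the 10004 genes measured on both arrays, with lines at the 6 measured members and dashed lines at 2-fold. Tsc22d3 (2.16), Fkbp5 (1.78) and Sgk1 (1.09) lie beyond the line on the old side, Nr3c1 (0.88) inside it, and Errfi1 (-1.87) and Hsd11b1 (-2.33) beyond it on the young side.

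The other genes of the pathway are given by lists drawn up by role. Over all 12105 genes that reached the floor on 1 or both arrays, 16.0% were past 2-fold on the old side and 11.3% on the young side, and the median log2 ratio was 0.03. Where just 1 array reached the floor, a lower bound replaces the fold. The list medians and the counts below use these bounds. A gene that reached the floor on the old array alone could lie on the old side only, so the number measured on both arrays is given for each list.

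Of 18 measured genes of the receptor complex and its coregulators, 2 were past 2-fold on the old side, 0 on the young side and 16 lay between. All were measured on both arrays. Over the 10004 genes that both arrays measured, 11.7% were past 2-fold on the old side and 10.6% on the young. The median of the list was 0.26 and turned to -0.02 with quantile normalization. The coactivator gene Ncoa3 had 3937 on the old array and 531 on the young one (7.41-fold higher on the old, probe sets between 1.37 and 2.89 in log2 ratio). Fkbp4, the FK506-binding protein that carries the receptor toward the nucleus, had 717 on the old array, against 322 on the young, a log2 ratio of 1.15. Its second probe set was at 0.24, and Fkbp4 was under 2-fold over all its probe sets (0.69) and with the higher floor (0.55). The mineralocorticoid receptor gene Nr3c2, whose protein also binds glucocorticoids, had 264 on the old array and 324 on the young one, a log2 ratio of -0.30. No probe set carried Hsp90ab1 as its only symbol.

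Of 14 genes of corticosteroid metabolism and transport, 8 were measured, 1 past 2-fold on the old side and 2 on the young side (median -0.27). Both arrays measured 4 of these, with 0 past 2-fold on the old side and 2 on the young. H6pd encodes the enzyme that supplies NADPH to the Hsd11b1 product in the endoplasmic reticulum. It had 1677 on the old array, against 3395 on the young, a log2 ratio of -1.02, on the same side as Hsd11b1, though at -0.99 with loess. Hsd11b2, which inactivates the hormone, had 105 on the old array and a signal under the floor on the young (at least 1.43-fold). Akr1c14, a steroid dehydrogenase gene, was 2.49-fold lower on the old array, with 191 there and 474 on the young. Star, which moves cholesterol into mitochondria, had 189 on the old array and was under the floor on the young (at least 2.57-fold), but its probe sets averaged 0.93 in log2 ratio. The adrenal steroid synthesis genes Cyp11a1, Cyp11b1, Cyp11b2 and Hsd3b1 were below the floor on both arrays.

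Other genes known to be induced by glucocorticoids lay mainly on the old side. Of 42 measured, 25 were past 2-fold on the old side and 3 on the young side, with a median of 1.20, and the count on the old side was between 20 and 28 over the 9 alternatives. Among the 35 measured on both arrays 20 were past 2-fold on the old side and 3 on the young side, with a median of 1.10, and the other 7 reached the floor on the old array alone. The clock gene Per1 had 1928 on the old array and 251 on the young one, a 7.69-fold difference. The MAP kinase phosphatase gene Dusp1 had 25994 on the old array, against 4873 on the young (5.33-fold). The transcription factor gene Klf9 had 16228 on the old array and 3963 on the young one (4.10-fold). All 3 were past 2-fold in each of the 10 settings. The search for nearest ratios took in 102 listed genes that both arrays measured. They came from the lists by role and from the immediate early and dissociation-response genes given below, without the cell type markers. The ratios nearest to that of Tsc22d3 were those of Klf2 and Klf9, which differed from it by 0.117 and -0.123 in log2 ratio. For Fkbp5 they were Glul (by 0.052) and the immediate early gene Nr4a2 (by 0.114), for Sgk1 Ndrg1 and Txnip (by -0.003 and 0.005), and for Nr3c1 Hif3a and Sdc4 (by -0.024 and 0.101). Some of this closeness depends on the probe set chosen. The probe sets of Nr4a2 ran from -0.09 to 1.89 and those of Hif3a from -0.01 to 0.86. With the higher floor Nr4a2 had a log2 ratio of 0.11. Nedd4l and Angptl4 were nearest to both Errfi1 (by 0.225 and 0.418) and Hsd11b1 (by 0.684 and 0.877). Few of the genes searched were past 2-fold on the young side. Both gaps of Hsd11b1 exceed the SD of 0.42 between probe sets of a gene, so it had no close neighbour. The probe sets of Nedd4l ran from -1.64 to -0.46. All these comparisons rest on 2 arrays, so each sets a single ratio against another.

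At the far end of that list were Zfp36, an RNA-decay gene (203-fold higher on the old array), the metallothionein gene Mt2 (62.8-fold) and Pdk4, which restrains glucose oxidation (at least 54.1-fold). The young signals of Zfp36 and Mt2 were low, at 105 and 191. Their log2 ratios, 7.66 and 5.97, were limited to 5.44 and 4.62 with the higher floor. Lower on the old array were Lcn2 (16.7-fold), Angptl4 (2.73-fold) and Foxo3 (2.32-fold), the last with a mean log2 ratio of -0.65 across its probe sets. Lcn2 read 156 on the old array, and its log2 ratio of -4.06 was limited to -2.41 with the higher floor. Many genes of the list, Dusp1, Zfp36, Klf2, Cebpd and Nfkbia among them, also answer to serum, stress or inflammatory signals. Cd163 is a macrophage gene and Tat a hepatocyte gene that is also in the hepatocyte list.

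Of 24 listed inflammatory genes that glucocorticoids are known to repress, both arrays measured 5, with 2 past 2-fold on the old side, 0 on the young side and a median log2 ratio of 0.70. These were Cxcl1 (6.45), Icam1 (3.87), Lif (0.70), Ccl7 (0.41) and Ccl2 (-0.71). A further 10 reached the floor on the old array alone, all at 2-fold or more as bounds, and 9 on neither array. Over the 15 genes together, of which 12 were past 2-fold on the old side, the median was 3.87, and 2.06 with the higher floor, a value that the genes seen on the old array alone had to raise. The chemokine gene Cxcl10 had 17896 on the old array and lay under the floor on the young (at least 243-fold). The cytokine gene Il1a had 11746 on the old array and was likewise under the floor on the young (at least 159-fold). The chemokine gene Cxcl1 had 6632 on the old array, against 75.7 on the young, where it was just above the floor (87.6-fold, its 3 probe sets between 2.64 and 6.45 in log2 ratio). Ccl2 had 1312 on the old array and 2142 on the young one, a log2 ratio of -0.71.

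**Figure D3:**
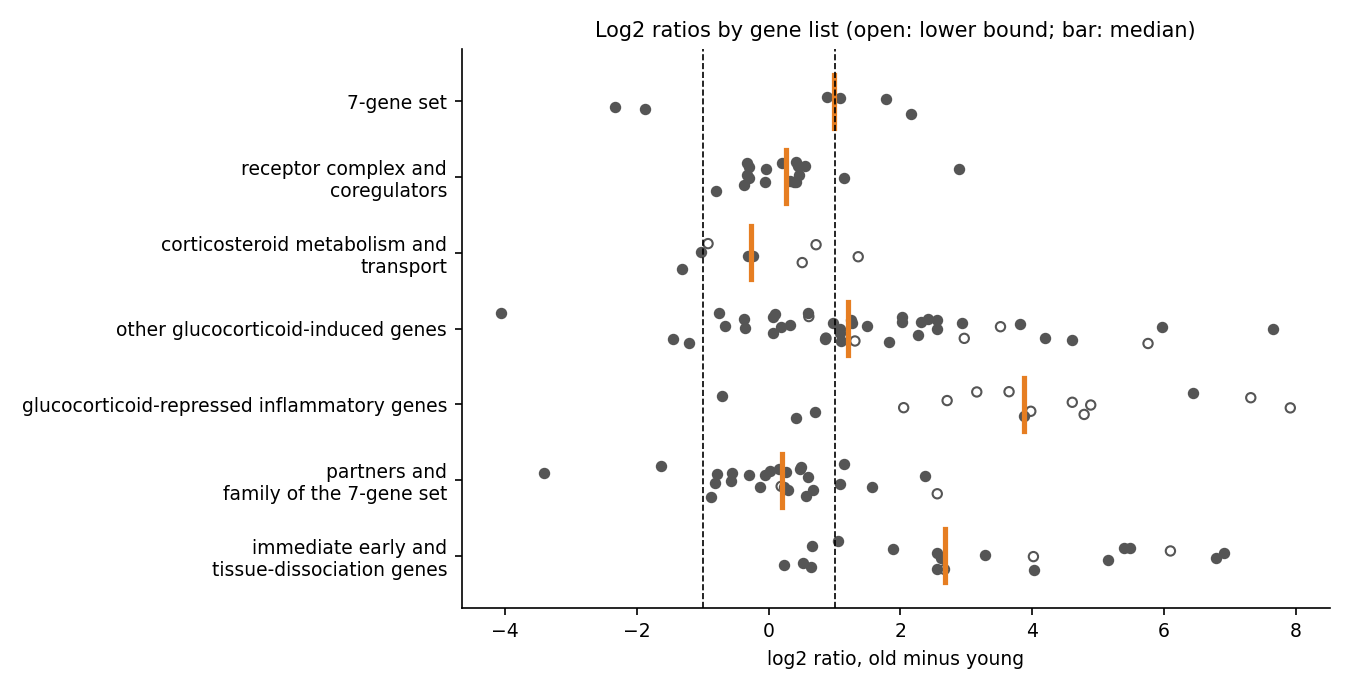
Log2 ratio, old minus young, of each measured gene by list, with the 7-gene set on top. Open points are lower bounds, orange bars are medians and dashed lines mark 2-fold; the medians are 0.99 for the 7-gene set and 1.20 for other induced genes, and 10 of the 15 points of the repressed inflammatory genes are bounds.

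Of 26 measured relatives and partners of the members, 5 were past 2-fold on the old side and 2 on the young side, with a median of 0.21. Over all 12105 measured genes these shares were 16.0% and 11.3%. Both arrays measured 24 of the list, with 4 on the old side and 2 on the young, beside 11.7% and 10.6% of the 10004 genes. Tsc22d1, a paralogue of Tsc22d3, had 16978 on the old array, against 10616 on the young (log2 ratio 0.68, probe sets between -0.13 and 1.03). Sgk3 had 1941 on the old array and 2850 on the young one, a log2 ratio of -0.55. Ndrg1, a known substrate of the Sgk1 kinase, had 8565 on the old array, against 4025 on the young, a log2 ratio of 1.09. It passed 2-fold in 4 of the 10 settings and was between 0.86 and 0.96 in the others.

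Of the receptor tyrosine kinase genes, Egfr and Erbb2, whose products Errfi1 is known to restrain, lay on the opposite side from it, and Met lay on the same side. Egfr had 359 on the old array and 163 on the young one, a log2 ratio of 1.14 that was 0.78 over all its probe sets and 0.99 with the offset. Erbb2 had 516 on the old array, against 174 on the young (2.96-fold higher on the old, 0.08 in log2 ratio with the higher floor). Met, the receptor for hepatocyte growth factor, was 10.7-fold lower on the old array, with 123 there and 1307 on the young. Its log2 ratio of -3.41 was limited to -1.42 with the higher floor, and 1 of its 2 probe sets was measured. The ubiquitin ligase gene Nedd4l, whose product Sgk1 phosphorylates, was 3.12-fold lower on the old array, with 862 there and 2692 on the young. Phlpp1, a phosphatase gene of the AKT pathway, was 5.16-fold higher on the old array, and Ndrg2 at least 5.88-fold.

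The 14 pan-endothelial markers were above the floor on both arrays. Of these, 5 were past 2-fold on the old side and 1 on the young side, with a median log2 ratio of 0.50 that was -0.01 with quantile normalization. The junction gene Pecam1 had 6049 on the old array and 6239 on the young one, and Cdh5 had 12534 on the old array, against 9951 on the young. The genes past 2-fold were Robo4 (log2 ratio 3.19), Tek (2.56), Esam (1.42), Eng (1.35), Kdr (1.14) and, on the young side, Emcn (-1.12). The summed signal of the group was 172512 on the old array, against 109093 on the young. On the old array 22519 probe sets cleared the floor, against 20901 on the young. The 3' to 5' signal ratio, which rises as RNA degrades, had no common direction, with 1.32 on the old array and 1.20 on the young one for Actb, and 0.718 on the old array, against 0.806 on the young, for Gapdh.

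Several marker groups differed between the arrays in the same direction as Tsc22d3 and Fkbp5. Of 21 immediate early and dissociation-response genes 19 were measured, of which 15 were past 2-fold on the old side and 0 on the young side (median 2.67), among them Egr1 (121-fold), Fos (110-fold) and Nr4a1 (at least 68.8-fold). Both arrays measured 16 of them, with 12 on the old side. Of 11 liver sinusoidal endothelial markers 11 were above the floor on the old array and 6 on the young, 10 were past 2-fold on the old side, and the sums were 207519 on the old array and 25750.0 on the young one. Its gene Stab2 had 24882 on the old array, against 787 on the young. Of 13 hepatocyte markers 13 cleared the floor on the old array and 1 on the young, and 13 were past 2-fold on the old side, with sums of 22782 on the old array, against 499.9 on the young. Alb and Apoa1 were below the floor on the young array, while Apoa2 had 1383 on the old array and 355 on the young one.

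Leukocyte and macrophage markers lay on the same side. Of 10 leukocyte markers 10 cleared the floor on the old array and 3 on the young, 9 were past 2-fold on the old side, and the sums were 15724 on the old array and 1852 on the young one. Ptprc and Fcer1g were below the floor on the young array, while Lcp1 had 1799 on the old array, against 1391 on the young. Of 11 macrophage markers 11 cleared the floor on the old array and 2 on the young, 10 were past 2-fold on the old side, and the sums were 24122 on the old array, against 632 on the young. Csf1r had 5835 on the old array and 75.6, just above the floor, on the young one. C1qa had 2853 on the old array, with no signal over the floor on the young one, and Cd68 had 672 on the old array, against 377 on the young.

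Stromal markers did so too. For fibroblasts 8 of 10 cleared the floor on the old array and 1 on the young, 7 were past 2-fold on the old side, and the sums were 23141 on the old array, against 386 on the young. Col1a1 and Col1a2 were below the floor on the young array, and Dcn was above it. For smooth muscle and pericytes 10 of 10 cleared the floor on the old array and 3 on the young, 7 were past 2-fold on the old side and 1 on the young, and the sums were 25100 on the old array and 2761 on the young one. Acta2 had 15847 on the old array, against 118 on the young, and Tagln had 6548 on the old array and 117 on the young one. For mesothelium 6 of 6 cleared the floor on the old array and 1 on the young, 6 were past 2-fold on the old side, and the sums were 12305 on the old array, against 139 on the young. Upk3b and Lrrn4 were below the floor on the young array, and Upk1b was above it.

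Lymphatic endothelial markers had the direction of Errfi1 and Hsd11b1. Of 7, 5 cleared the floor on the old array and 7 on the young, 5 were past 2-fold on the young side and 0 on the old. The median log2 ratio was -5.23, and -1.88 for the 5 that both arrays measured. Prox1 had 6885 and Nts 10414 on the young array, and both were below the floor on the old array. Reln had 107 on the old array, against 4023 on the young. The sums were 35086 on the old array and 64662 on the young one. Most of the old sum came from Lyve1 and Flt4, both within 2-fold. Lyve1, which is also in the liver sinusoidal list, had 14902 on the old array, against 16120 on the young. Flt4 had 18035 on the old array, against 10262 on the young. Of 13 lung epithelial markers 6 were measured, 2 past 2-fold on the old side and 1 on the young side, with Sftpc below the floor on both arrays and Sftpb above it on the old array alone. The part of these cell types and of the early response in the values of the 7 genes was not tested.

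**Figure D4:**
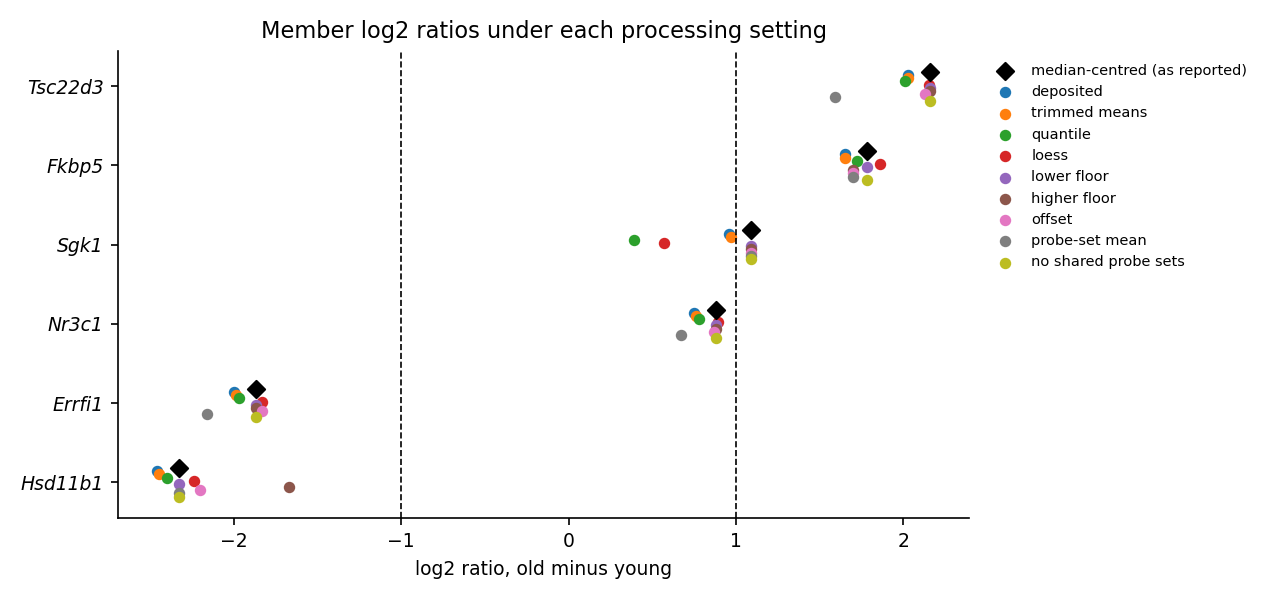
Log2 ratio, old minus young, of the 6 measured members under the reported setting (black diamonds) and 9 alternatives (coloured points), with dashed lines at 2-fold. No gene changes sign; Sgk1 crosses the 2-fold line, with values between 0.39 and 1.09.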

How the data were processed

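RNA of flow-sorted lung vascular cells from old and young mice after pneumonectomy was hybridised to 2 one-colour Affymetrix arrays, 1 per group, as biotin-labelled cRNA, per the labels' protocols. The deposited values hold 1 linear intensity per probe set, made with MAS5 in GCOS 1.4 according to the submitters' processing notes. Leaving off 2% of the values at either end, the mean was 500.003 for either array, as MAS5 scaling to a set target gives. Probe-level files and detection calls were not used here. The 64 control probe sets of 45101 were left out. On the deposited values probe sets brighter than both array medians had a median log2 ratio of -0.13.

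Genes were named by the platform's 2016 annotation, and only probe sets with 1 symbol were used. Depth does not apply to arrays, and with 1 array per group no test was made. The members and lists were chosen with earlier results of these data known. Named genes were all members, a fixed set of pathway genes, and up to 3 per list and direction with the largest ratio past 2-fold, the 2 listed genes with the ratio nearest to each measured member, and the first 2 genes of each marker list. Others (Acnat2, Gm35041, Icam1, Lif, Ccl7, Ccl2, the other markers, Cebpd, Nfkbia, Cd163, Tat and the adrenal genes) were chosen after their values were seen. Log2 ratios, floors and lists were computed with Python 3.11.15, numpy 2.4.6, pandas 2.3.3 and statsmodels 0.14.6. The procedure was tested on simulated data, a scaled copy of the young array with known changes set in some genes. Without noise between the copies, that check cannot test calls between different samples. Promoter windows were those of RefSeq, GRCm38.p6.

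The alternatives changed the scaling (no centring, trimmed means made equal, quantile normalization, or a loess curve of span 0.4), the floor (the 25th or 75th percentile, called the lower and higher floor, or an offset of 0.5 of the floor added before log2) or the choice of probe sets (their mean for a gene, or none whose name ends in _x_at or _s_at).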

Additional observations from a re-analysis of the deposited data

How the results depend on the processing

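The direction of the 6 measured members was the same under all 9 alternatives, and the count past 2-fold on the young side was 2 in each. The count on the old side was between 2 and 3, the lower value coming where Sgk1 was under 2-fold, and their median log2 ratio was between 0.59 and 0.99. On the values as deposited the median log2 ratio of genes measured on both arrays was -0.14, against -0.02 after centring. For corticosteroid metabolism genes the number past 2-fold on the old side, 1 as reported, was 4 with the lower floor, 3 with the offset, and 0 with the higher floor and over all probe sets, and that on the young side, 2 as reported, was 1 with the higher floor and 3 with the lower floor, after quantile normalization, for equal trimmed means and on the values as deposited. For the receptor complex the number on the old side was 1 with the higher floor and over all probe sets, and that on the young side 1 without _x_at and _s_at probe sets. For repressed inflammatory genes the number on the young side was 2 with the lower floor, and the median was 2.06 with the higher floor. For partners the number on the old side was 2 with the higher floor and 3 over all probe sets. The median of immediate early genes was 3.24 with the offset. The marker lists were recomputed by a choice made after seeing the data: the number on the old side was between 3 and 5 for pan-endothelial, 6 and 13 for hepatocyte, 2 and 9 for smooth muscle and pericyte, 4 and 8 for fibroblast, 6 and 9 for leukocyte, 8 and 10 for macrophage and 4 and 6 for mesothelial markers, 10 in each for liver sinusoidal ones, and the lymphatic number on the young side was 5 in each. The higher floor leaves fewer genes measured. Low signals limit Zbtb16 and the weaker probe sets of Nr3c1. No paired analysis was possible because each group has 1 array.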
